A study of Mus musculus with 3 samples.

Results

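A set of 6 miRNAs that are linked to gonadotropin signalling, TGF-beta signalling or steroid synthesis in granulosa cells were followed in cultured newborn mouse ovaries after DEHP exposure. They were mmu-miR-132-3p, mmu-miR-212-3p, mmu-miR-212-5p, mmu-miR-224-5p, mmu-miR-383-5p and mmu-miR-378a-3p. They were taken by name, for their known roles in these cells, and were chosen with earlier results of these data known. All 6 were found among the 627 mature miRNAs of the table, and all 6 were among the 587 that passed the minimum, a normalized count averaging 10 or more over the libraries. Ovaries of newborn CD1 mice were cultured for 72 h with 0, 10, or 100 μM DEHP (di (2-ethylhexyl) phthalate, used to soften plastics). The 0 μM cultures were given DMSO, the vehicle. The culture medium held serum, and no gonadotropin is named among its components. Several ovaries shared a well, and the paper used many more ovaries per concentration for sequencing than a well held. miRNA from total RNA of the ovaries was sequenced as 1 library for each concentration. This allows no test between groups, and p-values are therefore left out. All intervals below are 95% intervals for counting error within these libraries, and they leave out the variation between cultures.

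Granulosa cells surround the oocyte and carry the enzymes that turn androgen into estradiol. In the newborn ovary their precursors, the pregranulosa cells, enclose single oocytes when germ cell cysts break down and primordial follicles assemble. A mature miRNA is cut from one arm (5p or 3p) of a hairpin precursor and pairs with target mRNAs mainly by its seed, which is bases 2 to 8. In granulosa cells of growing follicles, luteinizing hormone and cAMP raise miR-132 and miR-212, whose hairpins are neighbours and respond to the transcription factor CREB in several tissues. TGF-beta raises miR-224, which targets Smad4 and promotes estradiol release. miR-383 has been tied to estradiol release through Rbms1. miR-378 represses aromatase (Cyp19a1), the enzyme that makes estradiol.

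The sequences below are shown because counts of miRNAs that share a seed, and of the arms of one hairpin, are compared later. RefSeq records of a whole chromosome were left out before matching, so a member without a match may still have a RefSeq sequence. Mature sequences of 4 of the 6 members were matched in RefSeq on GRCm38.p6. They are printed 5′ to 3′, with the seed in capitals, and the 5p arm of Mir132 is added because it is compared with the 3p arm.
miR-132-3p: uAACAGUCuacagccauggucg
miR-212-3p: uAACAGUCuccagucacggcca
miR-132-5p: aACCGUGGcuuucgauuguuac
miR-212-5p: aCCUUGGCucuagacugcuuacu
miR-224-5p: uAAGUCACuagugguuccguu

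miR-132-3p and miR-212-3p share the seed AACAGUC. Their 22 bases were identical at 17 positions, and the first 9 bases were all identical. Counted from 1 at the 5′ end, with the base of miR-132-3p first, the 5 differences were A10C, C14U, U17C, U20C and G22A. The seeds were sought among the 529 miRNAs of the table with a RefSeq mature sequence outside the chromosome left out. No other miRNA of these had this seed, and none shared the seed of miR-212-5p or that of miR-224-5p. The hairpins Mir212 (chr11:75173388-75173478) and Mir132 (chr11:75173682-75173747) lie on the plus strand with 203 bases between them, and GENCODE M21 places both in an intron of the noncoding transcript 1700016P03Rik. Mir224 (chrX:72261031-72261112) lies on the minus strand in an intron of Gabre, which encodes a subunit of the GABA-A receptor. The deposited counts were made on mm10, the same assembly as GRCm38.

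The 3 libraries held between 5064602 and 5952274 counts over the 627 miRNAs. In the vehicle library the 10 most abundant miRNAs took 45.4% of the counts, and they took 45.6% and 70.5% after 10 and 100 μM DEHP. Less of the 100 μM library was thus left for the other miRNAs. Counts were divided by size factors (1.38, 1.35 and 0.546), and the ratios against the 100 μM library depend on this scaling. When libraries were scaled to their totals instead, the log2 ratios between 100 and 0 μM shifted by -1.496 at the median over all miRNAs, and those between 10 and 0 μM by 0.02. With totals that leave out the 10 most abundant miRNAs, the shift between 100 and 0 μM was still -0.623. Which scaling is right was not tested. The gonad miRNAs miR-202-5p and miR-202-3p together had 31187.9, 40382.2 and 19963.9 normalized counts at 0, 10 and 100 μM, and the 2 arms of endothelial miR-126a had 46169.8, 52252.1 and 9855. The 4 blood markers found summed to between 866.6 and 1041 normalized counts, the 3 muscle markers to between 214.4 and 480, the 2 neuronal markers found to between 508.9 and 666.9, and liver miR-122-5p to between 10.4 and 16.0. The 6 miRNAs of the germ cell and pluripotent miR-290 cluster summed to 2614, 1901 and 5507. The part of these shifts in the values of the members was not tested. In whole ovaries, fewer cells of a type and less miRNA per cell cannot be told apart.

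In the vehicle library the 6 miRNAs spanned a wide range of levels. miR-378a-3p had 13584.4 normalized counts and ranked 47 of 627. miR-224-5p followed with 1012, miR-132-3p with 669.7, miR-212-5p with 150.9, miR-212-3p with 82.0 and miR-383-5p with 37.7. None of the neighbours in this order had overlapping Poisson intervals at 0 μM, and the same held at 10 μM. At 100 μM miR-132-3p (1823) stood above miR-224-5p (1378), and the intervals of miR-212-3p (44.7 to 89.2) and miR-383-5p (38.6 to 80.6) overlapped. The counts were not scaled by length, since mature miRNAs are of nearly equal length, and sequences can differ in how well they are captured. The 6 together held 0.408% of the counts in the vehicle library, 0.388% after 10 μM and 0.670% after 100 μM DEHP. Most of these were reads of miR-378a-3p.

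After 10 μM DEHP the normalized counts were 11754.2 for miR-378a-3p, 1554 for miR-224-5p, 919.2 for miR-132-3p, 187.7 for miR-212-5p, 115.7 for miR-212-3p and 54.9 for miR-383-5p. After 100 μM they were 69616.4, 1378, 1823, 141.1, 64.1 and 56.8 in the same order of miRNAs. The rank of miR-378a-3p went from 47 and 52 to 22, and that of miR-132-3p from 216 and 182 to 147. miR-212-3p ranked 376, 348 and 393 and was the rarer arm of its hairpin in each library. In CPM, counts scaled to the library totals, miR-378a-3p stood at 3564, 3128 and 6384 and was again highest at 100 μM. miR-132-3p stood at 175.7, 244.6 and 167.2 and miR-224-5p at 265.4, 413.7 and 126.3, so that on this scale both were highest at 10 μM and lowest at 100 μM.

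**Figure D1:**
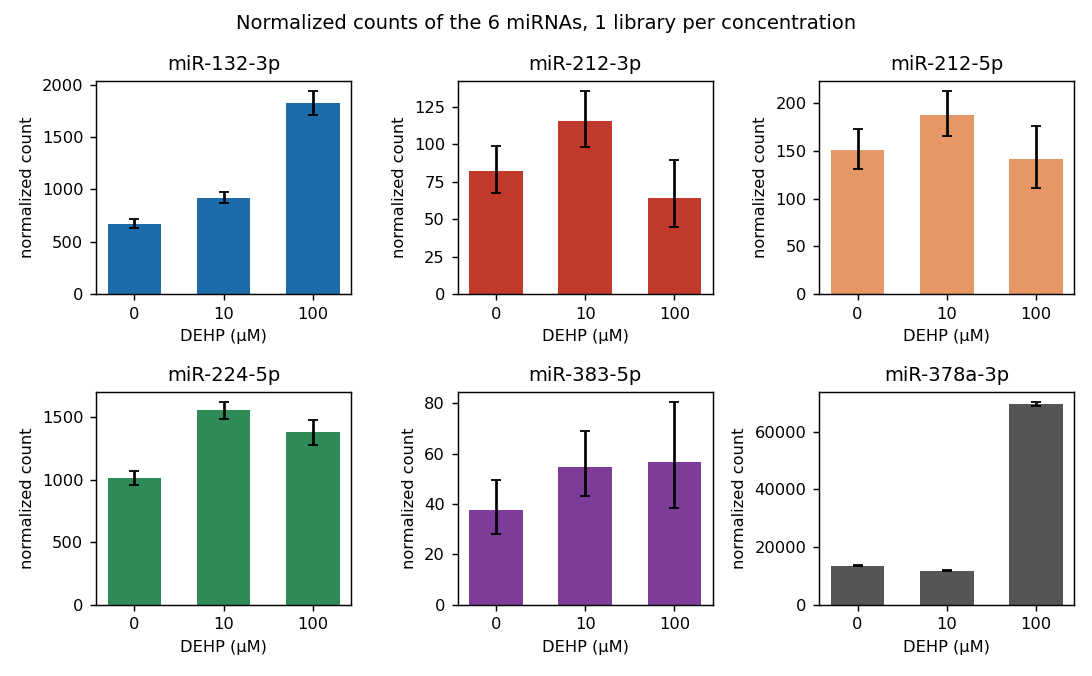
Bars show the normalized count (y axis, starting at 0, a separate scale in each panel) of each miRNA in the libraries of 0, 10 and 100 μM DEHP (x axis), with exact Poisson 95% intervals for counting error. miR-378a-3p stood at 69616.4 at 100 μM against 13584.4 at 0 μM, miR-132-3p was highest at 100 μM, and miR-212-3p, miR-212-5p and miR-224-5p were highest at 10 μM.

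Between 10 and 0 μM DEHP, 5 of the 6 miRNAs were higher and miR-378a-3p was lower, all by small amounts. miR-224-5p, the TGF-beta-linked member, had 1394 counts at 0 μM and 2095 at 10 μM, and its normalized level was 1.54-fold higher (1.44 to 1.65). The log2 ratio of miR-132-3p was 0.46 (0.33 to 0.58), from 923 and 1239 counts. Both arms of Mir212 were also higher at 10 μM, the 3p arm with a log2 ratio of 0.49 (0.14 to 0.86) and the 5p arm with 0.31 (0.04 to 0.59). miR-383-5p had 52 and 74 counts and a log2 ratio of 0.53 (0.01 to 1.08), so its interval barely cleared 0. miR-378a-3p had 18721 and 15844 counts and a log2 ratio of -0.21 (-0.24 to -0.18).

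For 5 of the 6 miRNAs the interval between 10 and 0 μM lay wholly above 0, against 28.1% of the 587 miRNAs, and for 1 it lay wholly below 0, against 27.1%. The members' median log2 ratio was 0.48, and that of all miRNAs 0.02. With no replicate it is not known how far 2 vehicle libraries would differ. No member passed a log2 ratio of 1 in either direction, where 1.53% of all miRNAs were above 1 and 5.11% below -1. miR-224-5p came nearest, and 37 of the 587 miRNAs had a higher ratio. These directions were the same under each of the scalings tried, where the log2 ratio of miR-224-5p was between 0.62 and 0.68 and that of miR-378a-3p between -0.21 and -0.15.

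Between 100 and 0 μM DEHP the members moved apart. miR-378a-3p, the aromatase-linked member, had 18721 counts at 0 μM and 37999 at 100 μM. Its normalized level was 5.12-fold that of the vehicle library, a log2 ratio of 2.36 (2.33 to 2.38), and 38 of the 587 miRNAs had a higher ratio. Its log2 ratio was above 0 under each of the scalings tried, and 0.84 with total counts. miR-132-3p had 923 and 995 counts, a log2 ratio of 1.44 (1.31 to 1.57) with the size factors and -0.072 with total counts. For miR-224-5p (1394 and 752 counts) the log2 ratio was 0.45 (0.32 to 0.57) with the size factors. It was -1.07 with total counts and -0.18 with totals that leave out the 10 most abundant miRNAs.

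The other members had intervals that included 0 between 100 and 0 μM. miR-212-3p had 113 and 35 counts and a log2 ratio of -0.35 (-0.95 to 0.20). miR-212-5p had 208 and 77 counts and a log2 ratio of -0.10 (-0.49 to 0.29). miR-383-5p, the least abundant, had 52 and 31 counts and a log2 ratio of 0.58 (-0.10 to 1.26). A difference of these 3 miRNAs was therefore not detectable at this depth with the size factors, and the interval of miR-383-5p reached from 0.932-fold to 2.39-fold. With total counts their log2 ratios were -1.86, -1.61 and -0.91.

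Of the 6 miRNAs, 2 had a log2 ratio above 1 between 100 and 0 μM, where 26.7% of all miRNAs did, and 1 had a log2 ratio above 2, where 10.4% did. None was below -1, against 25.7% of all miRNAs. The interval lay wholly above 0 for 3 of the 6 and wholly below 0 for none, against 38.3% and 37.1% of all miRNAs. The median log2 ratio of the members was 0.51 and that of all miRNAs -0.01. Counts of this size among 6 miRNAs were near the background shares and are no result about the members. With total counts the median of the members was -0.99, no member was above 1, and 3 were below -1.

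**Figure D2:**
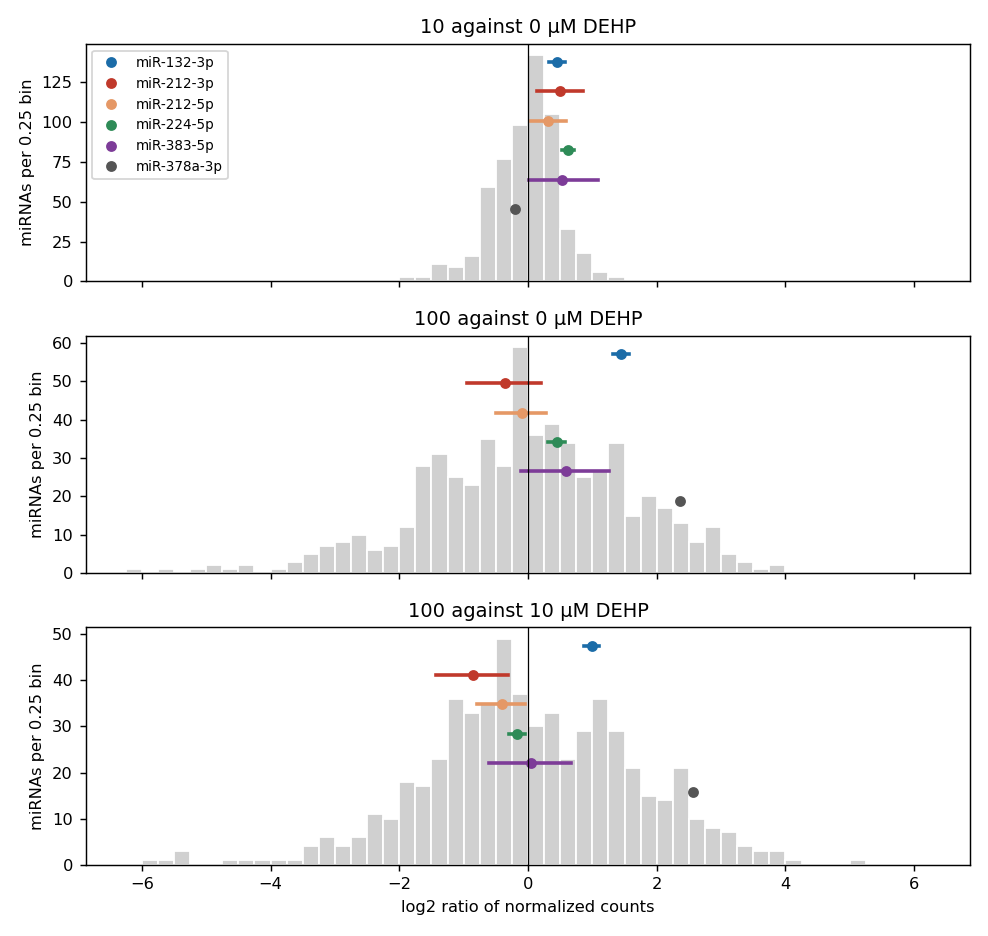
Grey bars count the 587 miRNAs in each bin of the log2 ratio of normalized counts (x axis), for 10 against 0, 100 against 0, and 100 against 10 μM DEHP. Coloured points are the 6 miRNAs, set at arbitrary heights, with 95% counting intervals. Between 10 and 0 μM the points lie from -0.21 to 0.62, and between 100 and 0 μM they spread from -0.35 to 2.36.

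Between 100 and 10 μM DEHP, miR-378a-3p was again the member with the highest ratio, with 15844 counts at 10 μM, a log2 ratio of 2.57 (2.54 to 2.59) and 35 of the 587 miRNAs above it. miR-132-3p had a log2 ratio of 0.99 (0.87 to 1.11), which was -0.55 with total counts. The arms of Mir212 lay lower at 100 than at 10 μM, with log2 ratios of -0.85 (-1.42 to -0.32) for the 3p arm and -0.41 (-0.80 to -0.04) for the 5p arm. miR-224-5p had a log2 ratio of -0.17 (-0.30 to -0.05), and that of miR-383-5p was 0.05 (-0.61 to 0.67). With total counts the log2 ratios were 1.03 for miR-378a-3p, -2.37 for miR-212-3p, -1.94 for miR-212-5p, -1.71 for miR-224-5p and -1.47 for miR-383-5p, so that miR-378a-3p alone was higher at 100 than at 10 μM on that scale.

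One member was above 1 and above 2 in this step, where 29.5% and 12.3% of all miRNAs were, and none was below -1, against 24.7%. The interval lay wholly above 0 for 2 members and wholly below 0 for 3, where the shares of all miRNAs were 38.2% and 37.0%. The members' median log2 ratio was -0.06 and that of all miRNAs -0.03. The 3 comparisons share their libraries, so they are not independent of each other.

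**Figure D3:**
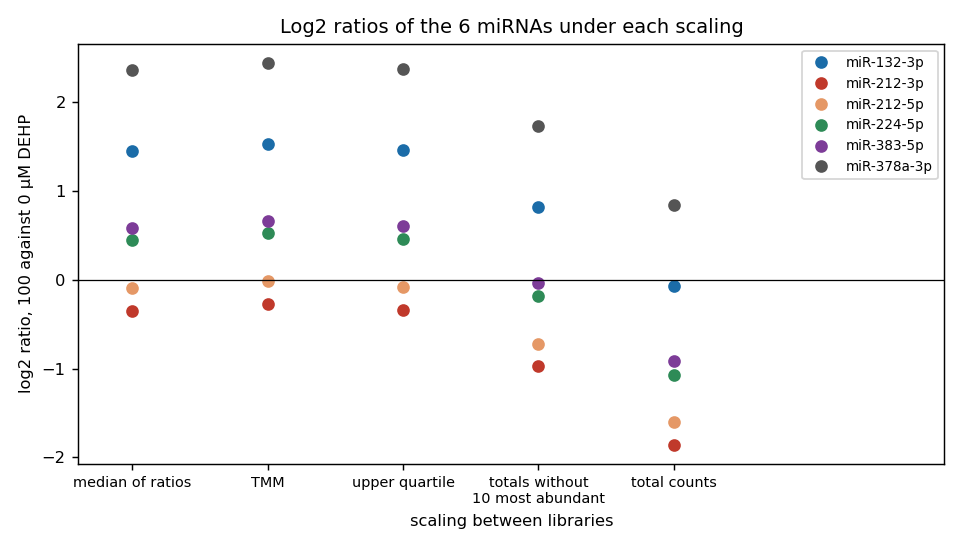
Points show the log2 ratio between 100 and 0 μM DEHP (y axis) of each of the 6 miRNAs under 5 scalings between libraries (x axis). The order of the miRNAs is the same in each column. All lie lower with totals without the 10 most abundant, and lower again with total counts, than with the median-of-ratios size factors. With total counts miR-378a-3p alone is above 0.

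Ratios of 2 miRNAs within one library do not depend on the scaling, and they showed how the members moved against each other. miR-132-3p held 89.1% (87.0% to 90.9%) of the reads that carry the AACAGUC seed, those of miR-132-3p and miR-212-3p together, at 0 μM. The 10 μM library gave 88.8% (87.0% to 90.4%) and the 100 μM library 96.6% (95.3% to 97.6%), so the 100 μM library stood apart and the other two overlapped. The ratio of miR-132-3p to miR-212-3p differed by 1.80 on the log2 scale between 100 and 0 μM (1.22 to 2.41). Single miRNAs spread widely in this comparison, with 26.7% of all miRNAs above 1 and 25.7% below -1. How often other pairs differed this much was not tested. Summed levels, unlike these ratios, do depend on the scaling. The reads of the seed numbered 1036, 1395 and 1030 at 0, 10 and 100 μM, and their log2 ratio between 100 and 0 μM was 1.33 with the size factors and -0.19 with total counts. All 4 arms of both hairpins had 1590, 2055 and 1205 counts, and the log2 ratio was 0.94 with the size factors and -0.58 with total counts. The 5p arms of the same hairpins, which have different seeds, gave another picture. miR-132-5p held 62.5%, 61.7% and 56.0% of the reads of both 5p arms, and these intervals overlapped.

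The arms of Mir132 shifted in the same library. The 3p arm took 72.7% of the reads of this hairpin in the vehicle library (70.2% to 75.2%). It took 75.3% after 10 μM DEHP (73.1% to 77.3%) and 91.0% after 100 μM (89.2% to 92.7%). miR-132-5p itself had 346, 407 and 98 counts, and its log2 ratio between 100 and 0 μM was -0.48 (-0.82 to -0.16) while that of miR-132-3p was 1.44. For miR-378a the 3p share was 98.8%, 98.3% and 99.7%. The 5p arm of miR-378a had 232, 279 and 97 counts, and its log2 ratio between 100 and 0 μM was 0.08 (-0.28 to 0.43) against 2.36 for the 3p arm. For Mir212 the 3p shares were 35.2%, 38.1% and 31.2%, with overlapping intervals.

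The 3p to 5p ratio was thus 1.93 higher on the log2 scale for Mir132 (1.57 to 2.29) and 2.28 higher for miR-378a (1.93 to 2.64) between 100 and 0 μM, and for Mir212 the difference was -0.26 (-0.97 to 0.44). Between 100 and 10 μM the values were 1.74, 2.79 and -0.44, and between 10 and 0 μM they were 0.19, -0.51 and 0.18. Such shifts were common in the 100 μM library. Of the 174 hairpins with both arms past the minimum count, 39.1% had a ratio more than 1 higher and 27.0% more than 1 lower between 100 and 0 μM. Between 100 and 10 μM these were 40.8% and 29.3%, but between 10 and 0 μM 10.3% and 7.47%. Of the 3 member hairpins with both arms, 2 were above 1 in each comparison with the 100 μM library and none in the other. Among the 174, 36 hairpins had a larger shift toward the 3p arm than Mir132 and 26 a larger one than miR-378a between 100 and 0 μM. All 3p arms had a median log2 ratio of 0.25 and all 5p arms one of -0.17 in that comparison, and the part of this in the members' values was not tested.

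**Figure D4:**
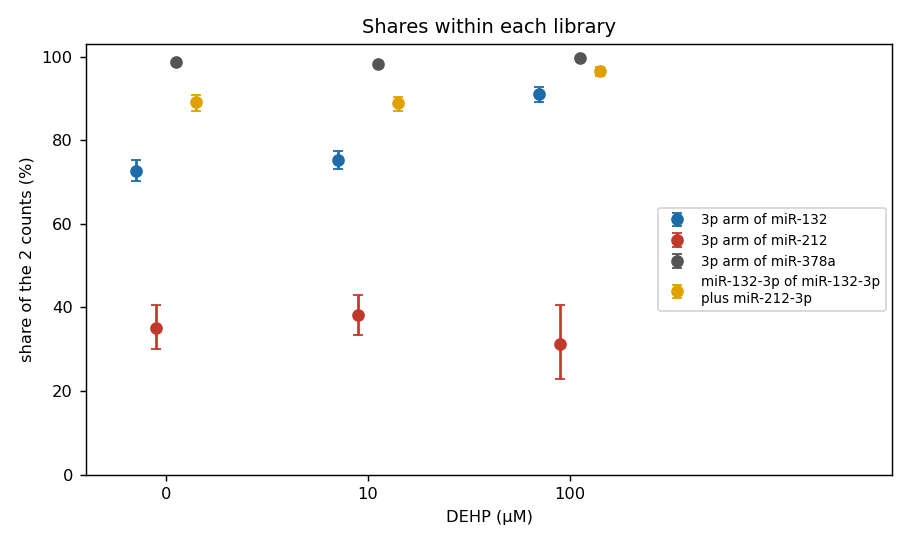
Points show the share (y axis, percent) of the first of 2 counts within the libraries of 0, 10 and 100 μM DEHP (x axis), with exact Clopper-Pearson 95% intervals. The 3p arm share of miR-132 and the miR-132-3p share among both AACAGUC miRNAs are highest at 100 μM, at 91.0% and 96.6%, while the intervals of the miR-212 arm share overlap.

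miR-378b, miR-378c and miR-378d, which carry the same family number as miR-378a, were added after their values were seen. miR-378c is so close in sequence to miR-378a-3p that reads could be assigned to either, so the split between them is uncertain. Whether this also holds for miR-378b and miR-378d was not examined. miR-378c had 3031, 2392 and 3521 counts at 0, 10 and 100 μM. Its log2 ratio was 1.55 (1.48 to 1.62) between 100 and 0 μM with the size factors. miR-378d had 2492, 2059 and 990 counts and a log2 ratio of 0.00 (-0.10 to 0.11), and miR-378b had 468, 429 and 218 counts and one of 0.23 (0.00 to 0.47). These ratios too depend on the scaling. In CPM miR-378c stood at 577, 472.3 and 591.5, miR-378d at 474.4, 406.5 and 166.3, and miR-378b at 89.1, 84.7 and 36.6. Between 10 and 0 μM the log2 ratios of the 4 miRNAs of this number lay between -0.31 and -0.09, with miR-378b the one whose interval included 0.

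The miRNAs nearest to each member were sought by Euclidean distance between their pairs of log2 ratios against 0 μM. The search covered the 374 whose normalized counts averaged 100 or more over the 3 libraries. The distances leave out counting error, which is wide for miR-383-5p and miR-212-3p, so the miRNAs nearest to these members are uncertain. For miR-378a-3p the nearest was miR-140-3p at a distance of 0.04, with 20754, 17096 and 41816 counts. miR-25-3p (0.13) was nearest to miR-132-3p, miR-130b-5p (0.13) to miR-212-3p, and let-7a-5p (0.04) to miR-212-5p. For miR-224-5p it was miR-668-3p (0.08), and for miR-383-5p miR-351-5p (0.08), with miR-668-3p next at 0.08. The second in line for the others was miR-3470b for miR-378a-3p, miR-30c-1-3p for miR-132-3p, miR-382-5p for miR-212-3p, miR-676-3p for miR-212-5p and miR-463-5p for miR-224-5p.

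Another 20 miRNAs described in granulosa cells were set beside the members. They too were chosen with earlier results of these data known, and all 20 passed the minimum count. Between 10 and 0 μM 1 of them, miR-125a-5p, had a log2 ratio above 1 (1.26) and none was below -1, against the 1.53% and 5.11% of all miRNAs given above, and their median was 0.23. Between 100 and 0 μM, 4 of the 20 were above 1 and 6 below -1, which is near the 26.7% and 25.7% of all miRNAs, and their median was -0.52 against -0.01 for all. miR-183-5p was above 2, with a log2 ratio of 2.82, and miR-34a-5p (-2.38), miR-181a-5p (-2.36) and the endothelial marker miR-126a-3p (-2.12) were below -2. miR-183-5p remained above 0 with total counts, at 1.30. Between 100 and 10 μM, 4 of the 20 were above 1 and 11 below -1, against 29.5% and 24.7% of all miRNAs, and their median was -1.03 against -0.03 for all. Beyond 2 in this step were miR-183-5p (2.42), miR-143-3p (2.29), miR-126a-3p (-2.29), miR-181a-5p (-2.23) and miR-34a-5p (-2.09). With total counts each ratio against the 100 μM library was lower by about the shift given above.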

How the data were processed

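Reads were trimmed, aligned with bowtie2 and quantified in miRDeep2 by the authors, whose deposited values are raw counts, with some mature miRNAs in several rows. The submitters' processing notes name mm10 and DESeq2. Versions and the miRBase release are not given in the sources used here.

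Of the 961 rows, the row of highest total was kept for each of 627 mature IDs. Each member fills 1 row. Size factors came from DESeq2 1.42.0, and TMM and upper-quartile factors from edgeR 4.0.16, in R 4.3.3. Other steps used Python 3.11.15 with scipy 1.17.1. A pseudocount of 0.5 was added to normalized counts before log2 ratios. All members lay above the floor of 3 counts. Intervals of ratios and shares are exact Clopper-Pearson intervals, those of levels exact Poisson intervals, and those of differences between ratios exact conditional odds ratio intervals, which were added after seeing the data. No molecular identifiers are described, so reads may not be independent molecules, and all intervals cover counting error only. Alternatives were other scalings (TMM, upper quartile, total counts, and totals without the 10 most abundant), pseudocounts of 1 and 10, summed rows, and a minimum of 100 or none. Samples were grouped by the labelled concentration. The members and lists were chosen with earlier results of these data known. Named miRNAs were the members, their other arms, miRNAs with the same seed, the 2 with the nearest ratios to each member, those of the granulosa list beyond 2, and marker miRNAs. Outside this rule, miR-378b, miR-378c, miR-378d and miR-125a-5p were named after their values were seen. The calculation was tested on simulated Poisson counts in which 390 of 572 miRNAs were unchanged between 100 and 0 μM. There 94.41% of the intervals held the true value. With most miRNAs unchanged by design, the simulation cannot decide between the scalings. Counts of miR-224-3p and miR-383-3p, target prediction, qRT-PCR and protein data were not analysed here.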

Additional observations from a re-analysis of the deposited data

How the results depend on the processing

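No paired analysis was possible because each concentration had 1 library, which also leaves no replicate to omit. Scaling decided the results against the 100 μM library. Between 100 and 0 μM the members' median log2 ratio became -0.99 with total counts and -0.11 with total counts that leave out the 10 most abundant miRNAs. With total counts 0 members were above 1, 0 above 2 and 3 below -1, and without the 10 most abundant 1 was above 1 and 0 above 2. The ratio of miR-132-3p became -0.072 with total counts. That of miR-224-5p became -1.07 by the same scaling, or -0.18 if the 10 most abundant were omitted. Between 100 and 10 μM the median became -1.59 with total counts (4 members below -1, 1 below -2, 0 above 2) and -0.72 without the 10 most abundant (2 below -1, 0 above 2). There the ratio of miR-132-3p became -0.55 with total counts, and with TMM 2 members were above 1. These moves follow from a common shift of all ratios. Of 126 ratios of single members under an alternative, 99 stayed within their counting interval. Pseudocounts of 1 and 10 and summed rows each kept 18 there. Total counts kept 6, and totals without the 10 most abundant kept 8. Of the 126 ratios, 8 changed sign, the 4 given above and 4 of miR-383-5p, whose intervals against the 100 μM library included 0. The summed ratio of the AACAGUC pair, rescaled after seeing the data, became -0.19 (100 against 0 μM) and -0.67 (100 against 10 μM) with total counts, and that of the 4 arms of Mir132 and Mir212 -0.58 and -1.003. The arm shares did not change with summed rows. Of all miRNAs, 30 were above 1 and 371 below -1 between 100 and 0 μM with total counts. Depth limits miR-383-5p and miR-212-3p most, with 31 and 35 counts at 100 μM.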
